A study of Solanum lycopersicum with 6 samples.

Results

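Heat shock factors and heat shock proteins are described here across axillary buds of 2 tomato cultivars, that is, young side shoots in the angle between leaf and stem. The genes are 10 loci chosen by identifier, of 25440 loci in the expression table. They comprise 4 heat shock factors (HSFA1a, HSFA2, HSFA3 and HSFB1), 4 small heat shock protein genes that stand close together on chromosome 6, the plastid small heat shock protein gene HSP21, and HSP101. The compared groups are the cultivar that the labels call monomaker and the cultivar they call compound raceme, with 3 libraries each, numbered 1 to 3 in their titles. All plants grew in a greenhouse, and no heat treatment is named in the labels. The titles carry WT for monomaker and BJ for compound raceme. The labels give no plant age and no genotype beyond these letters and the cultivar name. They do not say if each library was made from its own plants, so the p-values rest on a spread between libraries that could be technical.

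Heat shock factors are transcription factors that bind heat shock elements in promoters, and their targets encode chaperones. In tomato, HSFA1a is known as the master regulator that starts the heat response, HSFA2 as a factor that accumulates during heat and sustains it, and HSFB1 as a coactivator of class A factors. Small heat shock proteins hold unfolding proteins in a soluble state, and HSP101 is a disaggregase that pulls proteins out of aggregates together with HSP70. HSP21 is the small heat shock protein of plastids and is known in tomato for protecting photosystem II and for a part in the change of chloroplasts to chromoplasts.

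Values are FPKM, in which fragment numbers are divided by the length of the transcript and the size of the library. Whether the libraries were also scaled to each other is not given, so comparisons between libraries and between genes are approximate. Read counts are not part of the table, the depth of each library is unknown, and zeros are given as listed, with no limit of detection. FPKM summed to 674654 to 687303 in the compound raceme libraries and to 717108 to 750250 in the monomaker libraries. Monomaker 1 stood apart from its group. Its log2 values across tested loci, which are not independent replicates, correlated at 0.952 with compound raceme 1. The correlations were 0.935 and 0.917 with monomaker 2 and 3, and 0.923 and 0.904 with compound raceme 2 and 3. Results that change with monomaker 1 are therefore also given without it. That library was picked from these same data for its likeness to compound raceme. A locus that passes only without it thus has no independent support. Differences were tested with limma on log2(FPKM + 1) over the 18802 loci whose mean reached 1 FPKM, and a locus was called at a Benjamini-Hochberg adjusted p below 0.05. Folds are compound raceme minus monomaker on that scale, where changes of weakly expressed genes appear too small.

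Of the 10 genes, HSP21 was called lower in compound raceme buds and no other passed the test. HSP21 passed the filter on low values through monomaker, with a mean of 6.1 FPKM there and 0.913 FPKM in compound raceme. The call was lost with no filter (limma adjusted p = 0.0719). HSFA1a, HSFB1 and Solyc06g076520 had higher values in every compound raceme library than in any monomaker library without being called. HSFA2, HSFA3, Solyc06g076560, Solyc06g076570 and HSP101 overlapped between the cultivars. Of the 10 genes, 9 passed the filter on low values, and Solyc06g076540 fell just short of it at a mean of 0.97 FPKM. The 1 call among 9 tested genes stands beside 3.27% of all tested loci called. Values that did not overlap were found for 4 of the 9 genes, beside 31.7% of all tested loci. The median log2 fold of the 9 genes was 0.14, and that of all tested loci 0.04.

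**Figure D1:**
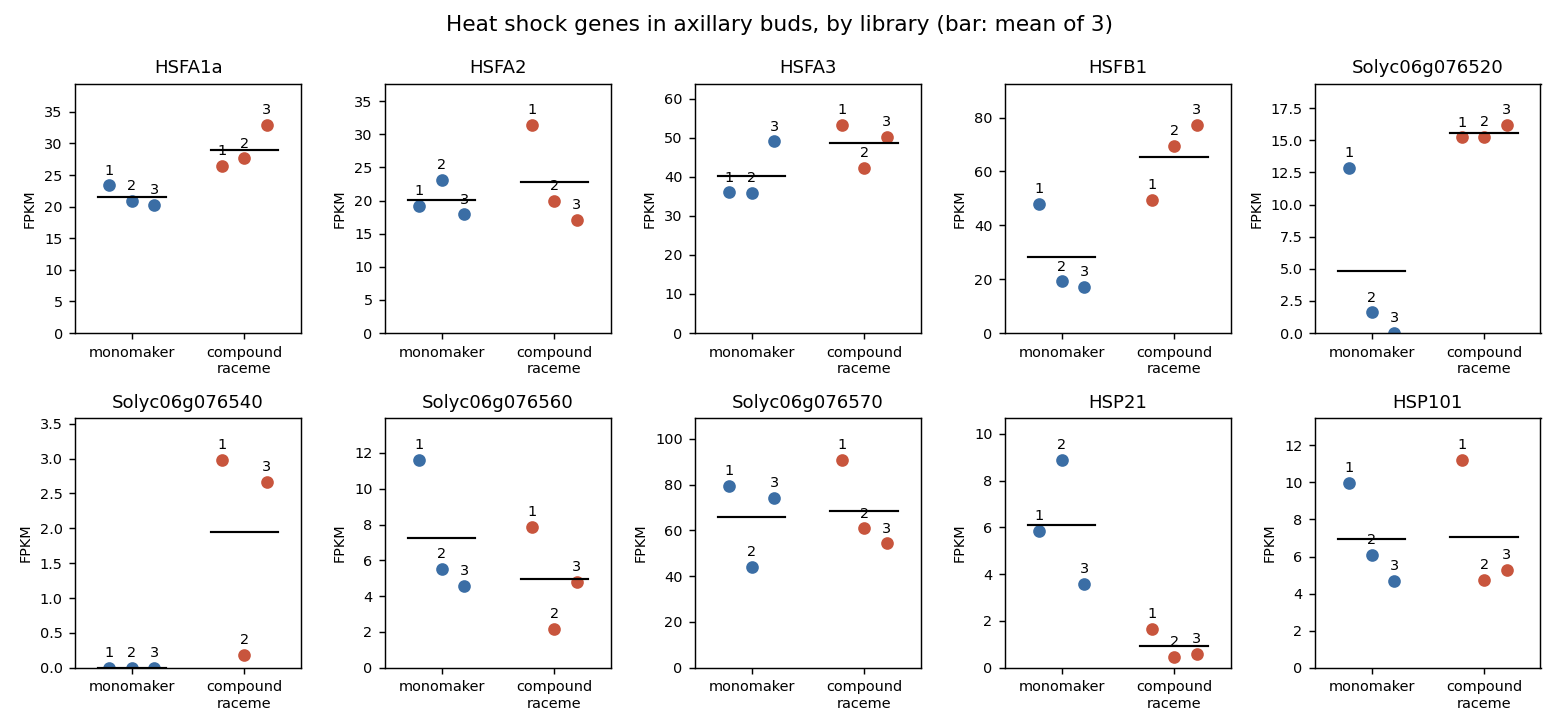
FPKM of the 10 heat shock genes in each library, with 1 panel per gene and its own linear axis from 0; points are libraries with their number beside them and black bars are means of 3. HSP21 lies between 3.59 and 8.88 FPKM in monomaker and between 0.46 and 1.67 FPKM in compound raceme, and HSFB1 in monomaker 1 (47.8 FPKM) lies close to compound raceme 1 (49.5 FPKM).

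Averaged over the 6 libraries, Solyc06g076570 had the highest level of the 10 genes at 67.2 FPKM. HSFB1 at 46.7 FPKM and HSFA3 at 44.4 FPKM came next, and the ranges of these top 3 over the libraries overlapped. HSFA1a at 25.3 FPKM and HSFA2 at 21.4 FPKM also overlapped each other, and each lay below HSFA3 in all libraries. The remaining chaperone genes were lower, with Solyc06g076520 at 10.2 FPKM, HSP101 at 7.0 FPKM, Solyc06g076560 at 6.09 FPKM and HSP21 at 3.51 FPKM, and their ranges overlapped.

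The factor that starts the response, HSFA1a (Solyc08g005170), had 23.4, 20.9 and 20.3 FPKM in the monomaker libraries numbered 1 to 3, against 26.5, 27.6 and 32.9 FPKM in those of compound raceme. Each compound raceme library exceeded each monomaker library, by a small margin. The log2 fold was 0.41 (95% interval 0.07 to 0.75), with an unadjusted limma p of 0.0245 and an adjusted p of 0.142. The adjusted p ranged from 0.102 to 0.339 over 16 alternative settings, and the fold stayed above 0 in each of them.

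HSFB1 (Solyc02g090820) had 47.8, 19.2 and 17.3 FPKM in the monomaker libraries, against 49.5, 69.4 and 77.2 FPKM in those of compound raceme. Monomaker 1 lay next to compound raceme 1, while monomaker 2 and 3 were far below every other library. The log2 fold over all libraries was 1.32 (SE 0.39, 95% interval 0.39 to 2.25, limma adjusted p = 0.108). Without monomaker 1, whose value was the one near compound raceme, it was 1.77 (limma adjusted p = 0.0107). That fit called 10.8% of all tested loci, 3.87% of them as higher in compound raceme. Over 16 alternatives the adjusted p of HSFB1 ranged from 0.0107 to 0.310 and was below 0.05 in 2. The ratio of HSFB1 to HSFA1a was 2.05 in monomaker 1, 0.916 and 0.851 in monomaker 2 and 3, and 1.87 to 2.51 in compound raceme. In the authors' deposited table, HSFB1 has a log2 ratio of 1.16 and a q-value of 0.0291.

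HSFA2 (Solyc08g062960) had 19.1, 23.1 and 17.9 FPKM in the monomaker libraries, against 31.4, 19.98 and 17.1 FPKM in those of compound raceme. Compound raceme 1 was the highest library and compound raceme 3 the lowest, so the cultivars overlapped throughout. The log2 fold was 0.14 (95% interval -0.42 to 0.71, limma adjusted p = 0.737), and it turned to -0.10 without compound raceme 1. This locus has a pair of rows in the table. The row with coordinates (chromosome 8, 52442803 to 52445981 of SL3.0, minus strand) carried 15.7 to 29.6 FPKM and the row without them 0.31 to 1.77 FPKM. What distinguishes such rows is not stated in the sources at hand, and they were summed.

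HSFA3 (Solyc09g009100), known in Arabidopsis to act downstream of the drought factor DREB2A, had 36.0, 35.8 and 49.1 FPKM in the monomaker libraries, against 53.2, 42.3 and 50.2 FPKM in those of compound raceme. Monomaker 3 lay within the compound raceme range. The log2 fold was 0.27 (95% interval -0.15 to 0.70, limma adjusted p = 0.365). Its row with coordinates (chromosome 9, 2443117 to 2448447 of SL3.0, minus strand) had 22.2 to 35.5 FPKM, with overlapping cultivars. Its other row had 13.5, 13.7 and 16.9 FPKM in the monomaker libraries, against 17.7, 18.2 and 24.1 FPKM in those of compound raceme, which did not overlap. The authors' deposited table gives these rows q-values of 0.913 and 0.379.

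**Figure D2:**
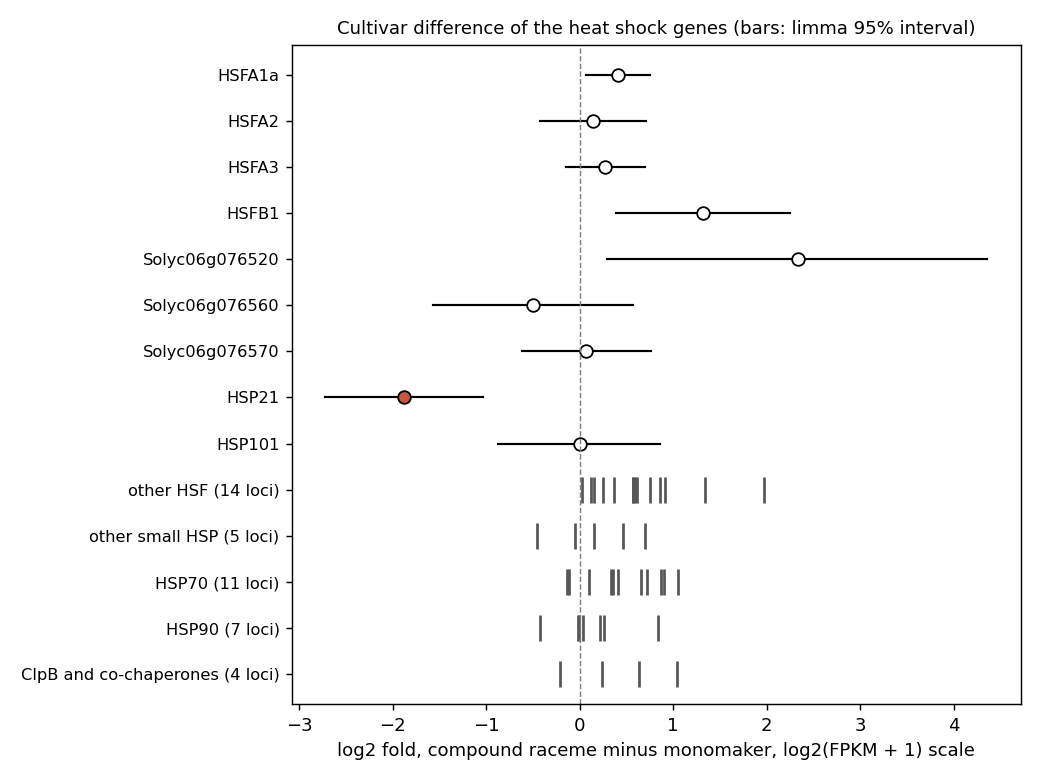
Log2 folds of compound raceme minus monomaker on the log2(FPKM + 1) scale for the 9 tested genes, with limma 95% intervals (filled circle, adjusted p below 0.05), and for 41 other tested heat shock loci by family (ticks, 1 per locus). HSP21 lies at -1.88 and is the filled circle; the 14 ticks of other heat shock factors lie between 0.03 and 1.97.

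The 4 small heat shock protein genes of chromosome 6 differed among themselves. RefSeq lists HSP17.8, HSP20-1, HSP17-6 and Hsp20.0 at a like place on that chromosome, but the place does not tell which of them is which locus, so identifiers are used. Small heat shock protein genes are a family with close copies, among which reads may be split, so the values of single loci are uncertain.

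Solyc06g076520 had 12.9 and 1.60 FPKM in monomaker 1 and 2 and was listed at 0 in monomaker 3, and it had 15.2, 15.3 and 16.2 FPKM in compound raceme. The 3 compound raceme libraries lay within about 1 FPKM of each other, and monomaker 1 lay close below them. The log2 fold was 2.33 (SE 0.86, 95% interval 0.29 to 4.36, limma adjusted p = 0.156). Without monomaker 1, the only monomaker library near compound raceme, it was 3.36 (adjusted p = 0.00966), in a fit that called 10.8% of all tested loci. The fold ran from 1.46 without monomaker 3 to 3.59 with a pseudocount of 0.1. The authors' deposited table gives a smaller log2 ratio, 1.17, and a q-value of 0.431.

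Solyc06g076540 was listed at 0 in all 3 monomaker libraries and had 2.98, 0.18 and 2.66 FPKM in compound raceme. Compound raceme 2 was thus near the monomaker values. It was below the filter, no fold is given against a group listed at 0, and with no filter the limma adjusted p was 0.171. The authors' deposited table gives it a q-value of 0.0443.

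Solyc06g076560 had 11.6, 5.54 and 4.57 FPKM in the monomaker libraries, against 7.89, 2.17 and 4.78 FPKM in those of compound raceme. Library 1 was the highest in both cultivars and the groups overlapped, with a log2 fold of -0.50 (95% interval -1.57 to 0.57, limma adjusted p = 0.510). Solyc06g076570 had 79.5, 44.0 and 74.1 FPKM in the monomaker libraries, against 90.7, 60.8 and 54.3 FPKM in those of compound raceme. Its cultivar means, 65.9 ± 19.1 and 68.6 ± 19.4 FPKM (SD, n = 3), differed by less than the SD of either group, and its log2 fold was 0.07 (95% interval -0.62 to 0.76). It made up 69.7% to 94.2% of the summed FPKM of the 4 genes in each library. The sum of the other three was 24.5 FPKM in monomaker 1, 7.14 and 4.57 FPKM in monomaker 2 and 3, and 17.6 to 26.1 FPKM in compound raceme.

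HSP21 (Solyc03g082420), the plastid small heat shock protein gene, had 5.84, 8.88 and 3.59 FPKM in the monomaker libraries, against 1.67, 0.46 and 0.61 FPKM in those of compound raceme. All compound raceme libraries lay below all monomaker libraries, monomaker 1 included. HSP21 fell with a log2 fold of -1.88 (SE 0.36, 95% interval -2.72 to -1.03, limma adjusted p = 0.0454), beside 2.52% of tested loci called lower. The direction held in all 15 alternatives in which it was tested and the call in 9 of them, with adjusted p of 0.0415 to 0.171. Among the settings that lost the call were no filter on low values (adjusted p = 0.0719) and the fits without monomaker 2 (adjusted p = 0.135), monomaker 3 (0.0824), compound raceme 2 (0.171) or compound raceme 3 (0.155), and it held without monomaker 1 (0.0472). In the authors' deposited table its log2 ratio is -2.42 and its q-value 0.000516.

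Photosynthesis markers set monomaker 2 and 3 apart from the other 4 libraries. All 5 had a log2 fold below 0, and none was called. Their summed FPKM was 2560, 10200 and 16400 in monomaker 1 to 3 and 1120 to 2500 in compound raceme, and none of them was listed at 0. Monomaker 1 and compound raceme 1 had about the same sum, 2560 and 2500 FPKM. Of the 5 markers, 2 had lower values in every compound raceme library (15.3% of all tested loci did), as HSP21 had. In monomaker 1 and compound raceme 1, where the marker sums were about the same, HSP21 had 5.84 and 1.67 FPKM. Of 6 floral organ markers, 4 had lower values in every compound raceme library (15.3% of all tested loci did) and 3 of these fell (2.52% of tested loci). Those 3 passed the filter on low values through monomaker, with compound raceme means of 0.0167 to 0.253 FPKM. Another floral organ marker, Solyc02g084630, had higher values in every compound raceme library, with a log2 fold of 0.82 (limma adjusted p = 0.0842). The summed FPKM of all 6 was 49.4 to 58.9 in monomaker and 52.3 to 82.7 in compound raceme, and the markers Solyc05g015750 and Solyc04g081000 were each listed at 0 in some compound raceme libraries. The part of the photosynthesis and floral organ markers in the HSP21 result was not tested. In bulk tissue, fewer cells of a type and less RNA per cell cannot be told apart. Of 5 markers of buds and meristems, summing to 21.6 to 55.4 FPKM in monomaker and 61.5 to 80.9 FPKM in compound raceme, 3 passed the filter and none was called. The 3 trichome markers summed to 41.0 to 53.2 and 47.8 to 96.0 FPKM, and 1 of them rose (0.75% of tested loci). Another, Solyc10g005060, had lower values in every compound raceme library, with a log2 fold of -1.08 (limma adjusted p = 0.0727).

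HSP101 (Solyc03g115230) had 9.99, 6.11 and 4.67 FPKM in the monomaker libraries, against 11.2, 4.74 and 5.27 FPKM in those of compound raceme. Library 1 was the highest in each cultivar, and the cultivar means of 6.92 ± 2.75 and 7.07 ± 3.59 FPKM (SD, n = 3) differed by less than the spread. The limma adjusted p was 0.995, and the 95% interval of the log2 fold ran from -0.87 to 0.86. Among 18801 other tested loci, the pattern most like that of HSP101 over the 6 libraries, by the root mean square difference of centred log2 values, was that of Solyc08g081960 (0.056), followed by Solyc06g060360 (0.09). Of 49 other tested heat shock genes, 2 were among the nearest 100 loci, where heat shock genes made up 0.261% of all loci searched. The 2 were the small heat shock protein locus Solyc09g015020 and the ClpB and co-chaperone list's Solyc06g011370. Solyc09g015020 had 4.81, 2.85 and 2.87 FPKM in the monomaker libraries, against 5.40, 2.35 and 2.66 FPKM in those of compound raceme.

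**Figure D3:**
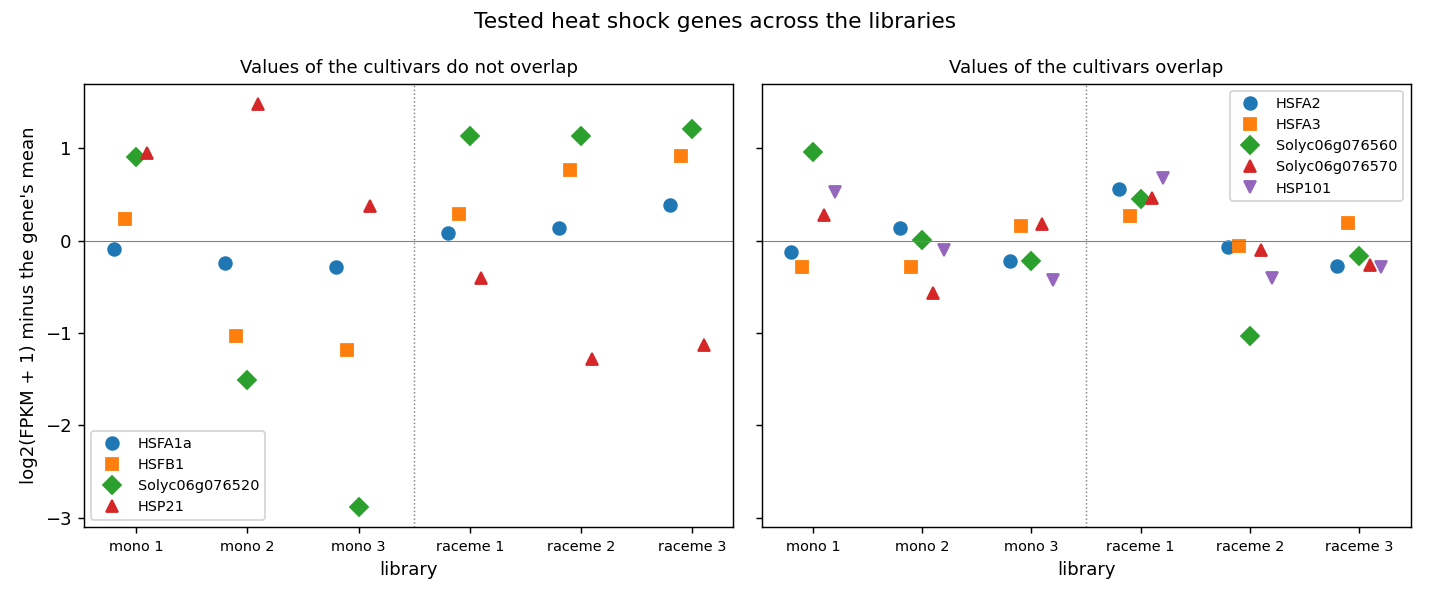
Log2(FPKM + 1) of each tested gene minus its mean over the 6 libraries, with genes whose cultivars do not overlap on the left and genes whose cultivars overlap on the right. On the left, HSFB1 and Solyc06g076520 in monomaker 1 lie near the compound raceme points (47.8 and 12.9 FPKM); on the right, HSP101, Solyc06g076560 and Solyc06g076570 have their highest point of each cultivar in library 1.

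A list of 53 other heat shock genes was read from the same fit. Its families follow published locus assignments as recalled, and names are given only where RefSeq places the symbol at a similar position. Of its loci, 52 have a row and 41 were tested. None was called, while 11 had an unadjusted limma p below 0.05 (25.7% of all tested loci did). The authors' deposited q-values were below 0.05 for some of these loci, with ratios above 0, and above it for most. Solyc03g026020 had 0.00116 and Solyc06g053960 had 0.00134. The paired rows of Solyc04g009770 had 0.000154 and 0.412, and those of Solyc03g006000 had 0.0168 and 0.979. Values did not overlap at 10 of the 41, higher in compound raceme each time, beside 16.4% of all loci in that direction. The log2 fold was above 0 at 33 of the 41 (53.9% of all tested loci), with a median of 0.37. Without monomaker 1, 6 of the 41 passed, each with a higher value in compound raceme, beside 3.87% of all tested loci called higher and 10.8% called in either direction in that fit. Calls over the whole table thus rose in that fit too, from 614 to 2025 loci.

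All 14 tested loci of the list of other heat shock factors had a log2 fold above 0 (53.9% of all tested loci did), and none was called. Their median was 0.58, and that of all tested loci 0.04. The 14 loci were read from the same 6 libraries and are not independent. The sign was not stable at Solyc09g059520 and Solyc08g080540, of which 1 or both had a fold below 0 without monomaker 2, compound raceme 1 or compound raceme 3, with -0.25 as the lowest. The most abundant, Solyc03g026020, had 131, 97.2 and 107 FPKM in the monomaker libraries, against 172, 231 and 207 FPKM in those of compound raceme (log2 fold 0.86, limma adjusted p = 0.0622; without monomaker 1, 0.98 and 0.0317). The factor with the largest fold, Solyc04g016000, had 7.11, 1.54 and 0.65 FPKM in the monomaker libraries, against 5.03, 15.5 and 19.7 FPKM in those of compound raceme (log2 fold 1.97, adjusted p = 0.141; without monomaker 1, 2.63 and 0.0387). The library 1 values of the cultivars crossed there, as 7.11 FPKM in monomaker exceeded 5.03 FPKM. Solyc06g053960, singled out after its values were seen, came closest to the threshold, with 3.71, 3.98 and 3.35 FPKM against 7.06, 11.4 and 15.6 FPKM (log2 fold 1.34, adjusted p = 0.0511), and it passed in 4 of 16 alternatives.

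The most abundant loci of all the heat shock lists were HSC80 and Solyc09g010630, at means of 2380 and 2680 FPKM. HSC80 (Solyc07g065840), a cytosolic HSP90, had 2049, 1418 and 1681 FPKM in the monomaker libraries, against 3504, 2875 and 2766 FPKM in those of compound raceme. The cultivars did not overlap, and the log2 fold was 0.84 (95% interval 0.13 to 1.54, limma adjusted p = 0.145). The HSP70 list's Solyc09g010630 had 2555, 1620 and 2129 FPKM in the monomaker libraries, against 3269, 3265 and 3244 FPKM in those of compound raceme (log2 fold 0.66, adjusted p = 0.229). Hsc70.2 (Solyc10g086410), with the largest fold of that list, had 121, 107 and 73.0 FPKM against 177, 175 and 273 FPKM (log2 fold 1.05, adjusted p = 0.0817), and it passed narrowly without monomaker 1 (log2 fold 1.2, adjusted p = 0.050). In the authors' deposited table these 3 loci have q-values of 0.000398, 0.0249 and 0.00299.

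Of the 7 tested HSP90 loci, 4 had a log2 fold above 0 and 3 below, with a median of 0.04. Of the 11 tested HSP70 loci, 9 were above 0, with a median of 0.41. The 5 tested loci of the other small heat shock proteins had log2 folds of -0.46 to 0.70. The most abundant of these, Solyc09g015000, had 24.3, 14.2 and 13.4 FPKM in the monomaker libraries, against 16.8, 18.1 and 21.3 FPKM in those of compound raceme. The one with the largest fold, Solyc08g062450, had 7.65, 1.55 and 2.08 FPKM and 9.31, 4.18 and 4.45 FPKM (log2 fold 0.70, adjusted p = 0.411). Without monomaker 1 its log2 fold was 1.24 (adjusted p = 0.0714). In the list of ClpB proteins and co-chaperones, Solyc04g009770 was the most abundant, at 465, 345 and 305 FPKM and 534, 585 and 592 FPKM (log2 fold 0.64, adjusted p = 0.138; without monomaker 1, 0.81 and 0.0495). ER24 (Solyc01g104740) was counted in that list and had its largest fold, although it is a multiprotein bridging factor and not a chaperone. It had 5.32, 0.51 and 1.26 FPKM and 3.20, 5.41 and 5.99 FPKM (log2 fold 1.04, adjusted p = 0.257). Without monomaker 1 its log2 fold was 1.63 and passed the test (adjusted p = 0.0319). It passed under 2 of its 15 alternatives, and its adjusted p ran from 0.0270 to 0.539. Solyc03g006000 of the heat shock factor list, named to complete the 6 loci called without monomaker 1, had log2 folds of 0.75 (adjusted p = 0.107) with that library and 0.96 (0.0319) without it.

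Library 1 had the highest value of its cultivar in both cultivars at 20 of the 50 tested heat shock genes, beside 26.9% of all tested loci. It was the lowest in both at 2 of the 50, beside 7.1% of all tested loci. This count was chosen after the values had been seen. Among the 9 tested genes described above, Solyc06g076560, Solyc06g076570 and HSP101 had library 1 as the highest in both cultivars. Monomaker 1 lay nearer to the compound raceme mean than to the mean of monomaker 2 and 3 at 29 of the 50, beside 52.6% of all tested loci.

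**Figure D4:**
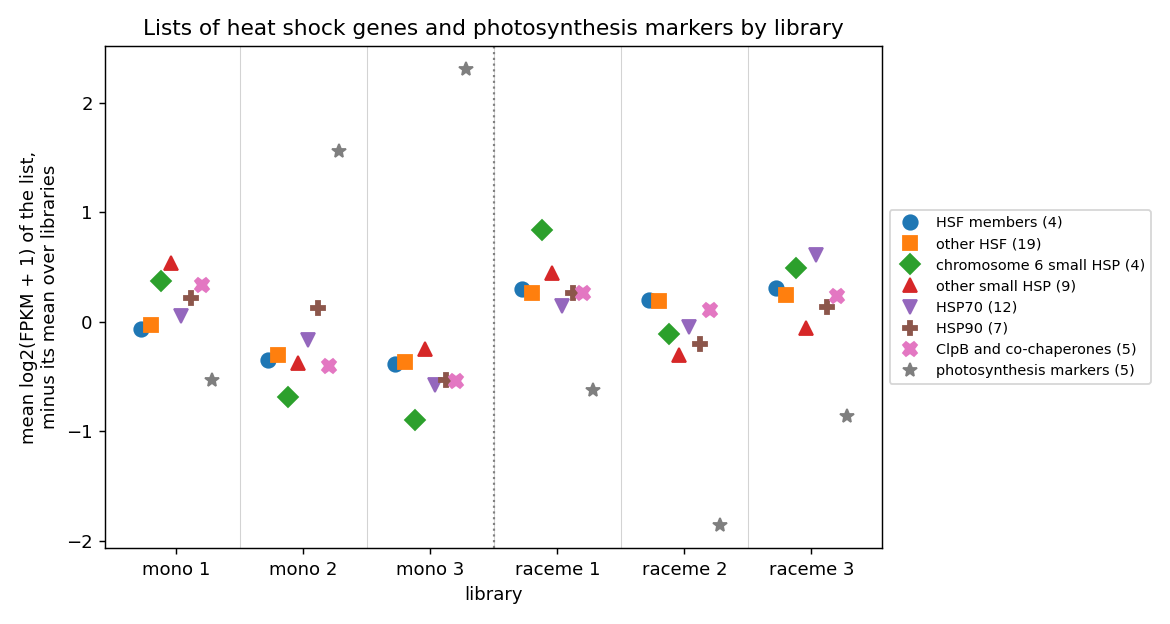
Mean log2(FPKM + 1) of each list of heat shock genes and of 5 photosynthesis markers in each library, minus the list's mean over the 6 libraries; numbers of loci are in the legend. Monomaker 2 and 3 are the lowest libraries for the 4 heat shock factors (mean log2 values of 4.65 and 4.62, against 4.94 in monomaker 1 and 5.20 to 5.31 in compound raceme) and the highest for the photosynthesis markers (10.58 and 11.33).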

How the data were processed

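The authors deposited FPKM values for 6 libraries in 31139 rows, rounded to 2 decimals, together with a log2 ratio, p-value and q-value per row, per the file headers; the headers do not say how these were computed. Per the submitters' processing notes, the tools were DESeq2 1.4.5, RSEM 1.2.12, HISAT2 2.0.4 and Bowtie2 2.2.5, with no role named for any. RNA was taken with Trizol and sequenced as BGI500 libraries, per the labels' protocols. Whether the authors scaled libraries to each other or counted by strand is not given.

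Rows of a locus were summed (5699 loci have 2 rows), giving 25440 loci. Those whose mean reached 1 FPKM were tested on log2(FPKM + 1) in limma 3.58.1 (R 4.3.3), with a variance trend on intensity, the cultivar as the only term and Benjamini-Hochberg adjustment over all tested loci; the code was checked on simulated data. An exact permutation test of 3 against 3 libraries cannot go below p = 0.1. The members and lists were chosen with earlier results of these data known. Names follow published locus assignments as recalled; RefSeq (assembly SLM_r2.1) lists symbols for HSFA1a, HSFA3, HSFB1 and HSP21 within 0.05 of the chromosome's gene order, and none matched to HSFA2 or HSP101. Named beside the 10 genes were, of each family of the other list, its most abundant tested locus and that of largest fold. Alternatives were other pseudocounts, filters, normalizations and variance models, unsummed rows, a replicate block and leaving out libraries. Title numbers were not taken to pair the libraries.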

Additional observations from a re-analysis of the deposited data

How the results depend on the processing

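The number of loci called, 614, became 389 with a minimum mean of 5 FPKM, 1913 without both number-1 libraries and 7 to 2025 when single libraries were left out, the highest without monomaker 1. Of the 10 heat shock genes, 1 was called, and 0 were with no filter, 0 with the minimum of 5 FPKM (HSP21 is then not tested), 3 without both number-1 libraries, and 0 to 3 with single libraries left out. Those 3 were HSP21, HSFB1 and Solyc06g076520, called in the fits that also called 1913 and 2025 of all 18802 tested loci. Of the other heat shock genes, 0 were called, 1 with a pseudocount of 0.1 or 0.5 or with quantile normalization, 5 without both number-1 libraries and 0 to 6 without single libraries. With the replicate block 0 loci and 0 heat shock genes were called (HSP21 at an adjusted p of 0.109). It left 4676 loci at an unadjusted limma p below 0.05, against 4835 without it. Deviations of same-numbered libraries correlated at 0.03, 0.06 and 0.10 across loci, and those of other pairs at -0.17 to 0.10. These correlations cannot tell if same-numbered libraries share a batch. The HSFA2 fold was -0.13 without both number-1 libraries and -0.10 to 0.32 without single libraries, that of Solyc06g076570 -0.19 to 0.23, and that of HSP101 -0.35 to 0.26 and 0.03 with quantile normalization. The median fold of the tested genes was -0.10 to 0.25 without single libraries. The causes were not tested. HSFA1a, HSFA3, HSFB1, Solyc06g076520, Solyc06g076560 and HSP21 kept their direction in every alternative that tested them. Depth is unknown, so limits of detection cannot be given.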

Other observations

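The highest library was not the same for all HSP70 and HSP90 genes. These loci were singled out after their values were seen. BiP/grp78 (Solyc08g082820), an HSP70 of the endoplasmic reticulum, had 50.7, 89.8 and 38.4 FPKM in the monomaker libraries numbered 1 to 3, against 27.9, 46.5 and 107 FPKM in those of compound raceme. Compound raceme 3 was thus the highest library and compound raceme 1 the lowest, and the cultivars overlapped (log2 fold -0.11, limma adjusted p = 0.911). HSP90 (Solyc06g036290) and hsc70.3 (Solyc04g011440) instead had their highest value of each cultivar in library 1. HSP90 had 10.1, 5.01 and 1.94 FPKM in the monomaker libraries, against 7.55, 2.95 and 4.67 FPKM in those of compound raceme, and hsc70.3 had 28.9, 9.58 and 7.54 FPKM and 42.4, 15.1 and 22.4 FPKM. Neither was called (adjusted p = 0.989 and 0.350). Without monomaker 1 the HSP90 log2 fold went from -0.01 to 0.46 and that of hsc70.3 from 0.87 to 1.42, with adjusted p of 0.497 and 0.0798. HSP100/CLPB (Solyc02g088610), a further ClpB gene, had 17.5, 15.7 and 13.7 FPKM in the monomaker libraries, against 17.1, 12.6 and 10.96 FPKM in those of compound raceme, with a log2 fold of -0.21 (95% interval -0.67 to 0.25).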
